A study of Mus musculus with 2 samples.

Results

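The genes described here are 6 that carry glycine transmission: the glycine transporters *Slc6a5* (GlyT2) and *Slc6a9* (GlyT1), the receptor alpha subunit genes *Glra1*, *Glra2* and *Glra3*, and the receptor beta subunit gene *Glrb*. They were taken by name and not by a rule on their values, though earlier results of these data were known. They are 6 of the 25556 genes in the count table. All 6 had UMIs in both libraries, and all 6 reached the minimum of 20 UMIs over both libraries that was set for a comparison, so no member was lost to a filter.

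The data are single-nucleus RNA-seq of the dissected, flash-frozen brainstem of 2 untreated female mice of postnatal day 41 on a C57Bl6 background (C57BL/6J in the study's methods), 1 library from each. The WT library came from a littermate with wildtype *Scn1a*, the gene of a voltage-gated sodium channel alpha subunit. The HET library came from a *Scn1a* A1783V/WT knock-in mouse, a model of Dravet syndrome, bred from a male with a floxed *Scn1a* allele and a Sox2-Cre female. Sox2-Cre acts in the early embryo, so the allele is not limited to the brainstem or to neurons. Whether the WT littermate carried Cre is not given in the sources used here, and UMI counts per gene do not show a missense allele. With 1 library per genotype, each difference below compares 2 libraries, has no replicate check and was given no test.

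Glycine is the main fast inhibitory transmitter of the caudal brainstem and spinal cord, next to GABA. GlyT2 returns glycine to the terminals of glycinergic neurons, where the vesicular carrier encoded by *Slc32a1* loads glycine or GABA into vesicles, while GlyT1, mostly a glial protein, clears glycine from the space around synapses. Glycine opens chloride channels made of alpha and beta subunits: the alpha subunits bind glycine, alpha 1 is the main adult form, alpha 2 is best known from the developing nervous system, and the beta subunit ties the receptor to the scaffold protein gephyrin.

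In GENCODE vM21 on GRCm38, *Slc6a5* (ENSMUSG00000039728) lies on the plus strand at chr7:49910146-49963856 and *Slc6a9* (ENSMUSG00000028542) on the plus strand at chr4:117834506-117875198. *Glra1* (ENSMUSG00000000263) lies on the minus strand at chr11:55514238-55608198, *Glra2* (ENSMUSG00000018589) on the minus strand at chrX:165129017-165327393, *Glra3* (ENSMUSG00000038257) on the plus strand at chr8:55940460-56130070 and *Glrb* (ENSMUSG00000028020) on the minus strand at chr3:80843599-80913660. RefSeq promoter sequences of 300 bases around a transcription start, on GRCm38.p6, were at hand for 5 of the 6 genes, all but *Glra1*. The UMIs of *Slc6a5* lay in few neuronal clusters, and the level of *Glrb* in oligodendrocytes was near its neuronal level. For this reason the promoters of *Slc6a5* (chr7:49910049-49910348, plus strand) and *Glrb* (chr3:80913611-80913910, minus strand) are shown. Both are written 5′ to 3′ with the dinucleotide CG in capitals.
Slc6a5: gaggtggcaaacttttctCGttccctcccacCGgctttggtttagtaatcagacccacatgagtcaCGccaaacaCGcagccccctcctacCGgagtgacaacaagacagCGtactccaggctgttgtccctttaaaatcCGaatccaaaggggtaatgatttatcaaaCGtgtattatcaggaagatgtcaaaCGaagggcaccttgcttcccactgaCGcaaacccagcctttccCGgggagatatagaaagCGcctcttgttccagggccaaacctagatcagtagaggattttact
Glrb: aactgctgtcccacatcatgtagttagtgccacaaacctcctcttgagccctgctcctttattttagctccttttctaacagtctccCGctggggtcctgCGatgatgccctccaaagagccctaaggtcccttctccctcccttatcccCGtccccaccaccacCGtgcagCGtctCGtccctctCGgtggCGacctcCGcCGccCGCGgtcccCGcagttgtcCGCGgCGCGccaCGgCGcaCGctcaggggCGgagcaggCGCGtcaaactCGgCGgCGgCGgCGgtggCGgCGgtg
The *Glrb* window held 30 CG dinucleotides and the *Slc6a5* window 12, against 7 in a further RefSeq window of *Slc6a5* at chr7:49911450-49911749 and a median of 7 over 32851 RefSeq promoters of the same length. As many as 30 were found in 11.7% of those promoters, and as many as 12 in 39.6%. The letters TATAAA, searched on both strands, stood in 13.6% of all promoters and, among the members' promoters, only in that of *Glra2* (chrX:165327344-165327643). A match of letters describes the window and is not a measured site.

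The count table held 9259 WT and 9022 HET nuclei with 70301390 and 66176778 UMIs, and a median of 5456 and 5646 UMIs per nucleus. The authors' 16 clusters, of which 9 are neuronal, and their 34 subclusters were used as deposited. Levels are the UMIs of a gene per 1000000 UMIs of the same nuclei (CPM) with an exact 95% Poisson interval, ratios are log2 of HET over WT CPM with an exact binomial interval, and shares of nuclei have an exact Clopper-Pearson interval. All of these cover counting error only. Nuclei of neuronal clusters made up 66.1% of the WT and 59.8% of the HET library, and more than 80% of the nuclei of 5 clusters (neuron.5, neuron.6, neuron.8, neuron.9 and epend.2) and of 10 subclusters came from 1 library. The summed level of 17 *Hox* genes, which mark caudal positions in the hindbrain, was 178 CPM in WT against 96.8 CPM in HET, and all 17 were lower in HET. Of the markers of other cell types, the 3 choroid plexus markers summed to 401 CPM in WT against 44.7 CPM in HET, and the 3 granule cell markers to 7.03 and 20.3 CPM. The part of these differences in the results below was not tested except where values are given by subcluster or by *Hox* UMIs. The libraries shared 23 cell barcodes.

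*Slc6a5* was concentrated in 2 of the 9 neuronal clusters, neuron.3 and neuron.1. Its level over both libraries was 166 CPM (155 to 177) in neuron.3, at 217 in WT and 142 in HET. In neuron.1, the largest cluster with 9111 nuclei, it was 91.9 CPM (89.9 to 93.9), at 109 in WT and 71.6 in HET. These intervals do not overlap, and together both clusters held nearly all *Slc6a5* UMIs, 84.5% in neuron.1 and 8.91% in neuron.3. Their shares of all nuclei were 49.8% and 2.53%, and neuron.1 also held 80.4% of *Glra2* and 80.6% of *Glra3* UMIs. Every other cluster was at or below 53.9 CPM of *Slc6a5*, the value of neuron.9. That cluster had only 37 nuclei and an interval of 17.5 to 126 CPM. Among subclusters with at least 50 nuclei, the highest levels were 215 CPM (201 to 229) in subcluster 13, the larger of the subclusters in neuron.3, then 167 CPM in subcluster 9 and 163 CPM (142 to 187) in subcluster 24, both of neuron.1. The intervals of subclusters 9 and 24 overlap, so their order is not set. Subcluster 27, which also lies mostly in neuron.3, had 5.99 CPM (2.59 to 11.8), so neuron.3 held nuclei with much and with little *Slc6a5*. In non-neuronal nuclei whose reference label matched their cluster, *Slc6a5* stood at 18.2 CPM, 22.1% of its neuronal level. Droplet data hold free RNA in all nuclei, and in these nuclei the neuronal marker *Rbfox3* stood at 10.6%, *Gad1* at 25.7% and *Slc17a6* at 52.9% of their neuronal levels, so no single marker sets a background level, and the source of the non-neuronal *Slc6a5* was not tested. After thinning each nucleus to 1000 UMIs, 6.75% of neuronal and 2.04% of these non-neuronal nuclei had a UMI of *Slc6a5*, and unthinned 32.0% and 5.73%, with median depths of 8055 and 2837 UMIs.

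*Slc6a9*, the glial transporter gene, had the opposite distribution. Its level was 167 CPM (156 to 179) in astrocytes, at 179 in WT and 158 in HET, and 70.4 CPM (66.1 to 75.0) in oligodendrocytes, at 67.8 in WT and 72.4 in HET. Over all neuronal clusters it was 14.3 CPM in WT and 14.3 CPM in HET. Astrocytes with agreeing labels thus held 1180% and oligodendrocytes 493% of the neuronal level. The thinned share of nuclei with a UMI was 15.5% in astrocytes, 6.88% in oligodendrocytes and 1.60% in neurons, and unthinned 40.8%, 19.95% and 12.7%. The ependymal cluster epend.1 (49.1 CPM, 33.6 to 69.3) and the fibroblast cluster (47.8 CPM, 34.5 to 64.6) followed and are not set apart from each other by their intervals. Because neuronal nuclei are many and deep, neuron.1 still held 37.8% of all *Slc6a9* UMIs, next to 27.5% in oligodendrocytes and 22.4% in astrocytes.

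**Figure D1:**
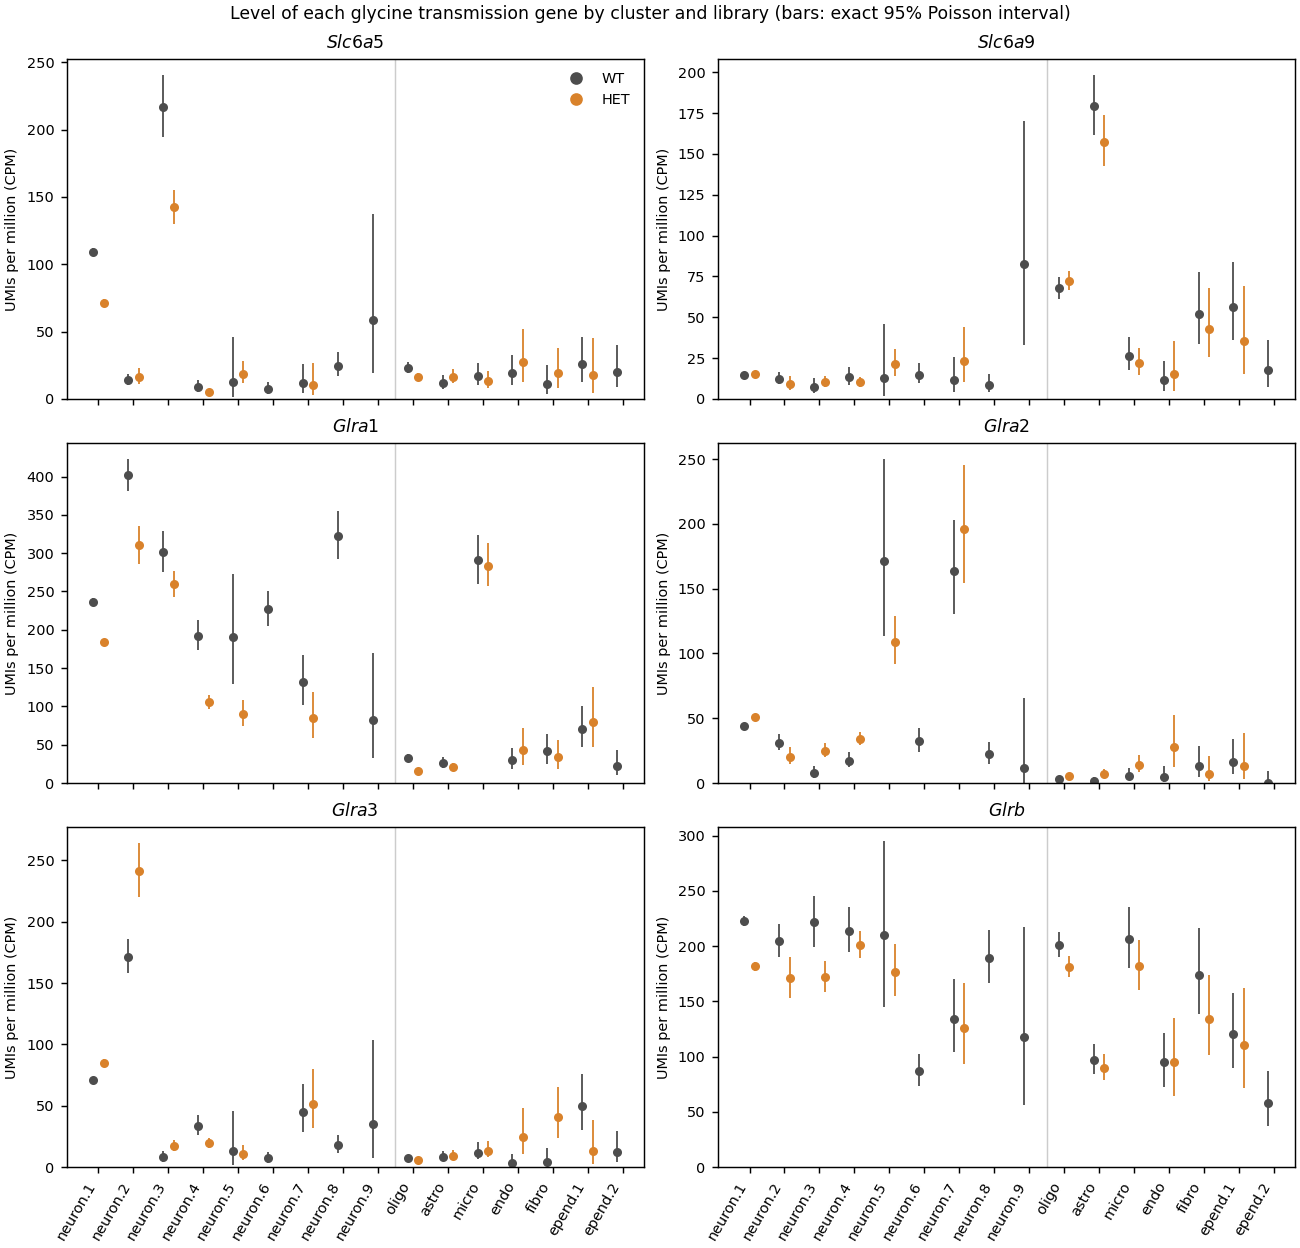
Level of the 6 genes in the 16 clusters (CPM, 1 panel per gene with its own linear axis from 0), with 1 point per library and exact 95% Poisson intervals as bars; neuronal clusters stand left of the grey line, and a library with under 30 nuclei in a cluster has no point. *Slc6a5* peaks in neuron.3 at 217 CPM in WT and 142 CPM in HET, *Slc6a9* in astrocytes, and *Glrb* spans neurons and glia.

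The receptor alpha subunit genes each had their own order of clusters. *Glra1* was highest in neuron.2 with 369 CPM (353 to 386), where the WT library had 402 CPM and the HET library 310 CPM. It was followed by neuron.8 with 309 CPM (282 to 338), the cluster with the highest sum of cholinergic markers (409 CPM), and by 273 CPM (259 to 288) in neuron.3, 225 CPM (203 to 249) in neuron.6 and 213 CPM (209 to 216) in neuron.1. The intervals of neuron.8 and neuron.3 overlap, as do those of neuron.6 and neuron.1. The cluster named micro also had 287 CPM (266 to 308) of *Glra1*. There the cluster name and the reference label mostly disagreed: only 26.7% of its nuclei had an agreeing reference label. Its markers were mixed, with the highest sum of microglial markers of all clusters (592 CPM) and 1454 CPM of neuronal markers. All 185 nuclei of its subcluster 18 were labelled as neurons, and that subcluster had 443 CPM (410 to 477) of *Glra1*. In the 108 nuclei of the cluster with an agreeing label it was 31.1 CPM, close to the 23 CPM of all non-neuronal nuclei with agreeing labels. The high *Glra1* of the cluster named micro thus came from nuclei that the reference labelled as neurons. The subcluster with the most *Glra1* was 14, of neuron.2, with 518 CPM (493 to 545), 569 CPM in WT and 433 CPM in HET.

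*Glra2* was highest in neuron.7, the cluster that carries the serotonergic markers *Slc6a4*, *Tph2* and *Fev* (2030 CPM in sum), with 178 CPM (151 to 207). The libraries did not differ there beyond their counting intervals, at 164 CPM in WT and 196 CPM in HET. The next level was 116 CPM (98.8 to 135) in neuron.5, the cluster with the most granule cell markers (516 CPM in sum), followed by 47.1 CPM (45.7 to 48.5) in neuron.1. These 3 intervals do not overlap. *Glra3* was highest in neuron.2 with 196 CPM (185 to 208), above neuron.1 with 77.3 CPM (75.5 to 79.2) and neuron.7 with 48.0 CPM (34.7 to 64.7), again with no overlap. Within neuron.2 it was found mostly in subcluster 12, at 261 CPM (242 to 281). Non-neuronal nuclei with agreeing labels held 9.73% of the neuronal level of *Glra2* and 9.20% of that of *Glra3*. Both were near the share of *Rbfox3* and below those of *Gad1*, *Slc17a6* and *Slc32a1*.

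*Glrb* was spread far more evenly. The levels of neuron.4 (205 CPM, 194 to 216), neuron.1 (204 CPM, 201 to 207), neuron.2 (193 CPM), oligodendrocytes (190 CPM, 182 to 197) and neuron.3 (188 CPM, 176 to 200) lay within a narrow range, and the intervals of neighbours in this order overlap. Lower levels were found in astrocytes (93.1 CPM), neuron.6 (87.3 CPM) and epend.2 (57.1 CPM). Oligodendrocytes with agreeing labels held 95% of the neuronal level and astrocytes 46.0%, whereas *Glra1* in oligodendrocytes was at 10.7% of its neuronal level. The thinned share of nuclei with a UMI of *Glrb* was 18.4% in neurons, 17.7% in oligodendrocytes and 8.45% in astrocytes, and unthinned 75.8%, 42.5% and 25.0%. Oligodendrocytes thus held *Glrb* UMIs at nearly the neuronal level. The 3 alpha subunit genes were in them at 8.64% to 10.7% of their neuronal levels, near the 10.8% of *Rbfox3*. Other neuronal markers stood higher there, *Gad1* at 26.5%, *Slc17a6* at 52.5% and *Slc32a1* at 79.5%. In astrocytes *Slc17a6* (52.4%) and *Slc32a1* (75.6%) stood above *Glrb*, and *Gad1* (20.5%) below it. The source of the glial *Glrb* UMIs was not tested.

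The share of each gene among the alpha subunit UMIs of a cluster compares clusters and libraries, and is not a measure of subunit protein or of stoichiometry, since counts of different genes are not on 1 scale. Over neuronal clusters, *Glra1* made up 68.8% of alpha subunit UMIs in WT (68.2 to 69.4) and 59.2% in HET (58.4 to 60.0). *Glra2* made up 11.6% in WT and 15.8% in HET, and *Glra3* 19.6% and 25.0%. The *Glra1* share was lower in HET in every one of the 6 neuronal clusters with 30 or more nuclei from both libraries, with overlapping intervals in neuron.5 (50.8% in WT, 42.9% in HET) and neuron.7 (38.7% and 25.6%). It was not lower in every subcluster: in subcluster 1, which held the most alpha subunit UMIs of the WT library, it was 78.5% in WT (77.4 to 79.5) and 79.6% in HET (77.8 to 81.3), and in subcluster 9 it was 70.9% and 69.5%, again with overlap. In neuron.2 it was 66.5% in WT and 54.3% in HET, with *Glra3* at 28.4% and 42.2%. In neuron.3 it was 95% in WT (92.8 to 96.7) and 86.0% in HET (83.8 to 88.0). The serotonergic cluster neuron.7 had a large share of *Glra2*, at 48.0% in WT (40.3 to 55.7) and 58.9% in HET (49.9 to 67.5), from 173 and 129 alpha subunit UMIs. In neuron.5 it was 45.8% (32.7 to 59.2) and 51.9% (45.7 to 58.0), so the order of both clusters is not set.

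Over all nuclei, *Slc6a5*, *Glra1* and *Glrb* were lower in the HET than in the WT library, and *Slc6a9*, *Glra2* and *Glra3* were higher. *Slc6a5* had 84.8 CPM in WT (5965 UMIs) and 56.1 CPM in HET (3710 UMIs), so a log2 ratio of −0.60 (−0.66 to −0.54) or 1.51-fold lower. *Glra1* stood at 218 CPM in WT against 157 CPM in HET, with a log2 ratio of −0.47 (−0.51 to −0.44), and *Glrb* 208 and 177 CPM, a log2 ratio of −0.23 (−0.27 to −0.20). The 3 other genes differed by less: the log2 ratio was 0.19 (0.11 to 0.27) for *Glra2*, at 35.7 and 40.7 CPM, 0.16 (0.06 to 0.26) for *Slc6a9*, at 24.4 and 27.3 CPM, and 0.07 (0.01 to 0.13) for *Glra3*, at 61.0 and 64.1 CPM. Only *Slc6a5* of the 6 genes passed 1.5-fold, by a narrow margin. Of the 21997 genes with at least 20 UMIs, 15.3% were lower and 10.9% higher in HET by at least 1.5-fold, so 1 of 6 lower and 0 of 6 higher is near the background. The median log2 ratio of the 6 genes was −0.08. The 16347 genes that reached 200 UMIs had a median of −0.10. Measured from that median, the log2 ratios were −0.49 for *Slc6a5*, −0.37 for *Glra1*, −0.13 for *Glrb*, 0.26 for *Slc6a9*, 0.29 for *Glra2* and 0.17 for *Glra3*. *Slc6a5* was no longer past 1.5-fold on that scale. Nor was it when each cluster had the same weight in both libraries, the mean of its shares of WT and HET nuclei (−0.56). In sums over all nuclei, fewer nuclei of a type and less RNA per nucleus cannot be told apart.

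Over the neuronal clusters alone, the same 3 genes were lower in HET and no member passed 1.5-fold. *Slc6a5* had 97.0 CPM in WT and 65.7 CPM in HET (log2 ratio −0.56, −0.62 to −0.50), *Glra1* 247 and 183 CPM (−0.43, −0.47 to −0.40) and *Glrb* 216 and 182 CPM (−0.25, −0.29 to −0.21). *Glra2* had 41.6 and 48.8 CPM (0.23, 0.15 to 0.31), *Glra3* 70.6 and 77.5 CPM (0.13, 0.07 to 0.20) and *Slc6a9* 14.3 CPM in each library (0.00). Among the 21155 genes scored in neurons, 14.3% were lower and 11.2% higher by at least 1.5-fold, against 0 of 6 members each way. The thinned share of neuronal nuclei with a UMI pointed the same way for the 3 genes that were lower. It was 7.92% in WT and 5.41% in HET for *Slc6a5*, 19.3% and 14.7% for *Glra1*, and 19.98% and 16.6% for *Glrb*.

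The caudal *Hox* genes were lower in the same nuclei, at 194 CPM in WT and 107 CPM in HET over neuronal clusters (17 of 17 lower, 13 of them past 1.5-fold). A UMI of any of these *Hox* genes was absent from 32.7% of WT and 51.6% of HET neuronal nuclei. In nuclei without one, *Slc6a5* had 95.8 CPM in WT and 60.0 CPM in HET (log2 ratio −0.67, −0.78 to −0.57). In nuclei with at least 3, it had 94.4 and 71.1 CPM (−0.41, −0.53 to −0.29), so it was lower in HET in nuclei with and without *Hox* UMIs. *Glra1* had log2 ratios of −0.39 in both of these sets, and *Glrb* −0.32 and −0.18. *Glra2* went from 0.41 (0.28 to 0.54) in nuclei without a *Hox* UMI to −0.12 (−0.30 to 0.06) in nuclei with at least 3. The latter interval spans 0, so the higher *Glra2* of HET was not found there. These sets were formed after the counts had been seen, and a nucleus without a *Hox* UMI may still be of caudal origin.

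Composition also moved with the *Slc6a5* value. Subcluster 1 of neuron.1, with 123 CPM of *Slc6a5*, held 18.5% of WT and 5.66% of HET nuclei, and gave 37.3% of the *Slc6a5* UMIs of the WT library and 17.9% of those of the HET library. Subcluster 13, the one with the highest level, gave 6.66% and 14.7%. Each subcluster was also given the same weight in both libraries, the mean of its shares of WT and HET nuclei. The log2 ratio of *Slc6a5* was then −0.35 in place of −0.60.

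Within the 20 subclusters that had 50 or more nuclei from both libraries, the lower values of *Slc6a5*, *Glra1* and *Glrb* were found again in many but not all. Over all genes and these subclusters, 57.1% of the 222557 pairs of a gene and a subcluster with at least 20 UMIs were lower in HET, 17.6% with the whole interval below 0 and 11.6% higher with the whole interval above 0. These pairs were not matched to the members in UMIs, and *Glra1* had 4375 WT and 1663 HET UMIs in subcluster 1. Intervals narrow as UMIs rise, so the shares with an interval clear of 0 are not directly comparable with the counts below. *Glra1* was lower in 15 of 18 subclusters, in 12 with the whole interval below 0 and in 0 with it above, and its median log2 ratio over subclusters was −0.34. *Glrb* was lower in 15 of 20, in 9 with the interval below 0 and in 0 above, with a median of −0.21. *Slc6a5* was lower in 11 of 14, in 4 with the interval below 0 and in 0 above, with a median of −0.35.

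The 4 subclusters with the *Slc6a5* interval below 0 all belong to neuron.1. The levels were 118 CPM in WT and 74.0 CPM in HET in subcluster 3 (−0.67, −0.83 to −0.52), 135 and 96.2 CPM in subcluster 1 (−0.49, −0.61 to −0.36), 123 and 88.5 CPM in subcluster 5 (−0.48, −0.65 to −0.31) and 82.0 and 58.5 CPM in subcluster 10 (−0.49, −0.77 to −0.20). Of the subclusters compared, those with the highest *Slc6a5* differed little between the libraries. Subcluster 13 had 223 CPM in WT and 209 CPM in HET (−0.09, −0.28 to 0.10), and subcluster 9 had 174 and 158 CPM (−0.14, −0.32 to 0.04). Subcluster 24, with a level near that of subcluster 9, had too few HET nuclei to be compared (73 WT and 46 HET). Its share of nuclei with at least 3 UMIs of *Slc6a5* was 37.0% in WT and 21.7% in HET, from 27 and 10 nuclei. That difference was not tested. Over the whole cluster neuron.3 the log2 ratio was −0.61 (−0.81 to −0.41), yet its subcluster 13 was at −0.09. Subcluster 27, with little *Slc6a5*, had 14 WT and 100 HET nuclei. The summed *Hox* level was lower in HET in each of these subclusters too, from 49.3 to 26.8 CPM in subcluster 13 and from 147 to 78.3 CPM in subcluster 1.

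*Glra1* was below 0 with its whole interval in all 6 subclusters of neuron.1 compared, from −0.14 (−0.22 to −0.06) in subcluster 1 to −0.59 (−0.74 to −0.43) in subcluster 10, and in both of neuron.2. In subcluster 11, which is nearly all of neuron.4, it was at 192 CPM for WT and 105 CPM for HET (−0.86, −1.06 to −0.67), and in the cluster neuron.5, with 42 WT nuclei, at 191 and 90.1 CPM (−1.08, −1.67 to −0.45). In subcluster 13 it did not differ beyond counting error, with 293 and 289 CPM (−0.02, −0.18 to 0.14). In oligodendrocytes, where *Glra1* was no higher relative to neurons than *Rbfox3*, it was also lower, at 33.2 CPM for WT and 16.2 CPM for HET (−1.03, −1.37 to −0.70). *Glrb* had log2 ratios between −0.35 and −0.22 in the 6 subclusters of neuron.1 compared and −0.34 in subcluster 13, each with its interval below 0. In oligodendrocytes as a whole *Glrb* was at 201 CPM in WT and 181 CPM in HET (−0.15).

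The other alpha subunit genes did not move one way. *Glra3* was higher in HET in both subclusters of neuron.2, at 222 CPM for WT and 339 CPM for HET in subcluster 12 (0.61, 0.39 to 0.83) and 117 and 160 CPM in subcluster 14 (0.45, 0.15 to 0.74), while *Glra1* was lower in the same nuclei. It was also higher in subcluster 5 (0.54) and lower in subclusters 9 (−0.31) and 11 (−0.79). *Glra2* was higher in subclusters 10 (0.62, 0.22 to 1.03), 11 (0.97, 0.44 to 1.54) and 13 (1.83, 0.88 to 2.91), the last from 11 WT and 57 HET UMIs, and lower in subcluster 1 (−0.33, −0.58 to −0.08). Of 12 subclusters compared, 5 were lower for *Glra2*, as were 7 of 13 for *Glra3*. *Slc6a9* was lower in 9 of 18 subclusters, with 1 interval below and 1 above 0: 213 CPM in WT and 173 CPM in HET in the astrocyte subcluster 4 (−0.30, −0.52 to −0.08), and 64.4 and 88.2 CPM in the oligodendrocyte subcluster 2 (0.45, 0.17 to 0.74).

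**Figure D2:**
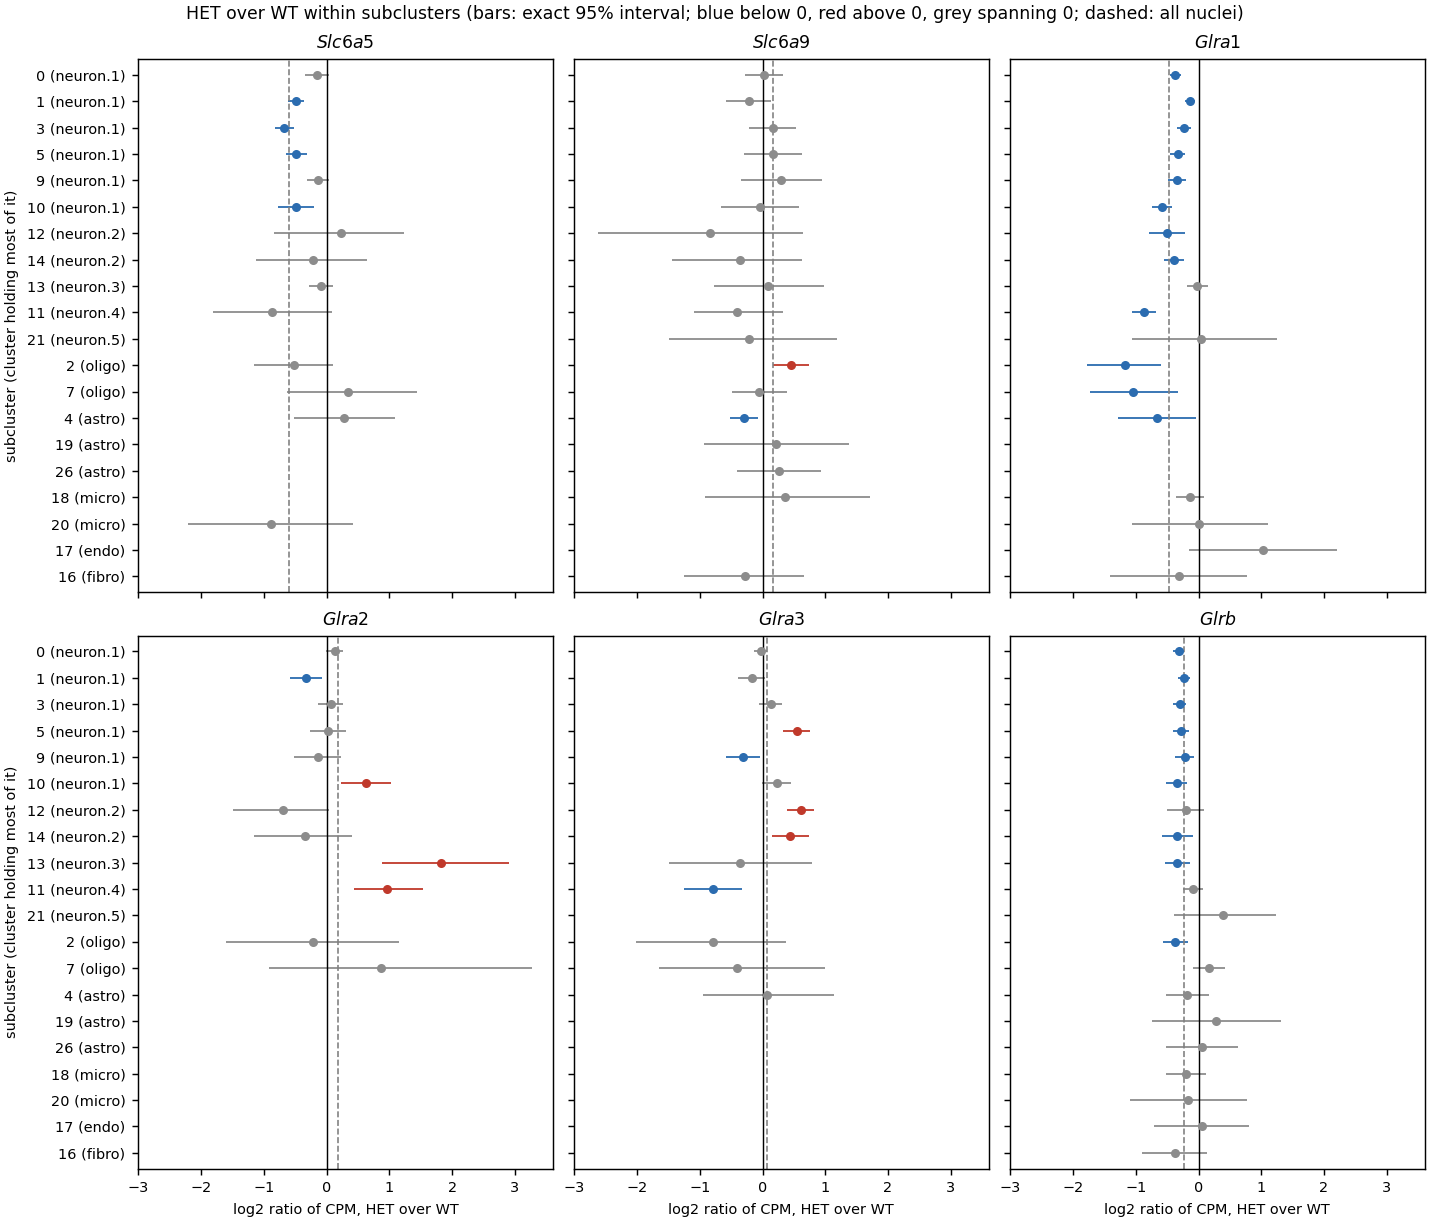
Log2 ratio of CPM, HET over WT, of each gene within each subcluster that had 50 or more nuclei from both libraries and 20 or more UMIs of the gene (x axis), with exact 95% intervals as bars; blue marks intervals below 0, red above 0 and grey those that span it, and the dashed line is the ratio over all nuclei. *Glra1* has 12 blue and 0 red points, *Glrb* 9 and 0, and *Slc6a5* 4 and 0, whereas *Glra2* and *Glra3* have both. Neuronal and glial subclusters are shown, and the blue points of *Glra1* include the glial subclusters 2, 4 and 7.

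Nuclei rich in *Slc6a5*, with at least 5 of its UMIs, were counted because this gene marks glycinergic neurons. Their choice uses *Slc6a5* itself, so only their number and their other genes are described. In the WT library 313 of 6118 neuronal nuclei reached 5 UMIs, or 5.12% (4.58 to 5.70), and in the HET library 174 of 5393, or 3.23% (2.77 to 3.73). With at least 3 UMIs the shares were 12.5% and 8.53%, and with at least 10 UMIs 0.915% and 0.389%. Of the 5969 non-neuronal nuclei with agreeing labels, 0 reached 5 UMIs, but their median depth was a fraction of that of the counted nuclei, which had 18105 UMIs in WT and 17609 in HET. A fixed number of UMIs favors deep nuclei, and the median depth of all neuronal nuclei was 7729 in WT and 8390 in HET. Neuron.1 held 85.6% of the counted nuclei, but also 9111 of the 11511 neuronal nuclei. Over both libraries 4.58% of the nuclei of neuron.1 were counted, against 4.23% of all neuronal nuclei and 14.3% of those of neuron.3.

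By subcluster, the share of nuclei with at least 5 UMIs of *Slc6a5* was clearly apart between the libraries in 1 of the 7 shown. In subcluster 3 it was 7.14% in WT (5.35 to 9.31) and 2.38% in HET (1.44 to 3.69). In subcluster 13 it was 19.6% and 16.9%, in subcluster 5 it was 9.01% and 6.62%, and in subcluster 9 it was 6.42% and 6.75%, each with overlapping intervals. Subcluster 1 had 7.53% in WT and 8.61% in HET although its *Slc6a5* level was lower in HET, and its nuclei differed in depth, with medians of 6758 and 11265 UMIs.

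**Figure D3:**
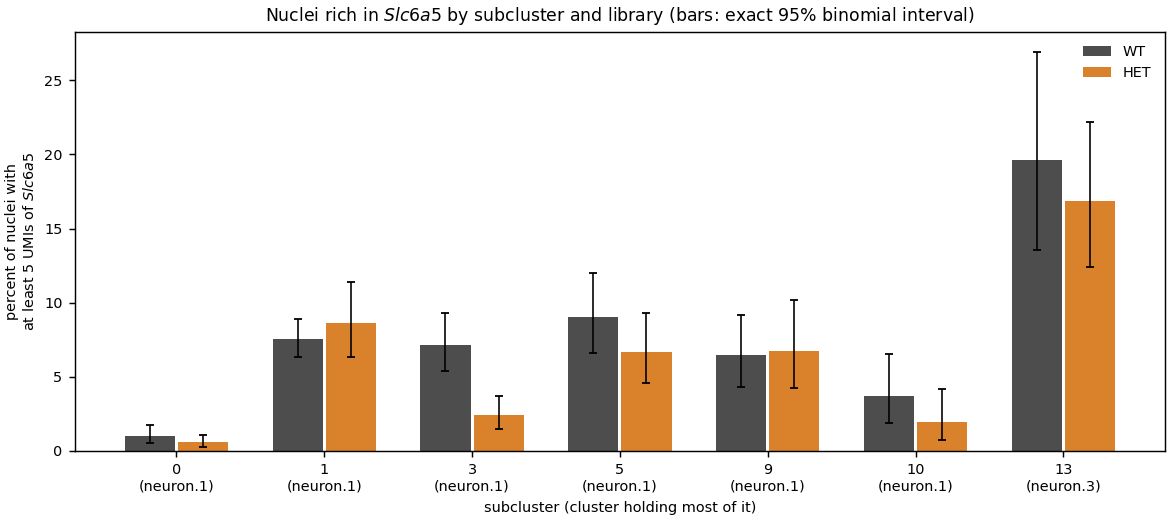
Share of nuclei with at least 5 UMIs of *Slc6a5* (percent, axis from 0) in 7 neuronal subclusters, 1 bar per library with exact 95% binomial intervals. The WT and HET intervals are apart in subcluster 3 (7.14% and 2.38%) and overlap in the other 6.

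The genes that accompany glycine in inhibitory terminals were read in these nuclei. Over both libraries, neuronal nuclei with at least 5 UMIs of *Slc6a5* had 44.0 CPM of *Slc32a1*, the vesicular carrier gene, against 24.0 CPM in the 7828 neuronal nuclei without a UMI of *Slc6a5*. *Gad2* and *Gad1*, the genes of the enzymes that make GABA, had 74.8 against 49.1 CPM and 33.1 against 23.1 CPM. *Slc17a6*, the vesicular glutamate carrier gene, had 9.77 against 111 CPM, so *Slc17a6* was much lower in the nuclei rich in *Slc6a5*. The *Gad1* and *Gad2* values depend on the number of UMIs required: with at least 10 UMIs of *Slc6a5* (77 nuclei), *Gad2* was at 48.1 CPM (39.8 to 57.7) and *Gad1* at 18.1 CPM (13.2 to 24.3), not above the nuclei without it, while *Slc32a1* was at 44.4 CPM and *Slc17a6* at 9.46 CPM. Of the receptor genes, *Glra1* was higher in them (275 against 204 CPM), *Glra2* (15.5 against 52.7 CPM) and *Glra3* (30.7 against 85.7 CPM) were lower, and *Glrb* was near equal (189 against 196 CPM), as was *Slc6a9* at a low level (11 against 15 CPM). *Slc32a1* is a weak marker in these data, because non-neuronal nuclei with agreeing labels held 27.3 CPM, 78.6% of its neuronal level, and its thinned share of nuclei was 4.11% in neurons and 3.09% in those nuclei (unthinned 25.2% and 8.59%).

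A UMI of *Gad1* or *Gad2* was found in 71.9% (66.6 to 76.8) of the WT nuclei rich in *Slc6a5* and in 61.5% (53.8 to 68.8) of the HET ones. A UMI of *Slc32a1* was found in 60.4% and 47.7%. In the same nuclei *Slc32a1* had 50.0 CPM in WT and 32.2 CPM in HET (log2 ratio −0.64, −0.96 to −0.32), *Gad2* 82.2 and 60.2 CPM (−0.45, −0.69 to −0.21) and *Gad1* 36.1 and 27.2 CPM (−0.41, −0.77 to −0.06). Of the postsynaptic genes, *Glra1* was at −0.22 (−0.34 to −0.10), *Glrb* at −0.10 (−0.24 to 0.04) and *Gphn*, the gephyrin gene, at 0.16 (0.10 to 0.22). With at least 3 UMIs of *Slc6a5*, *Slc32a1* was at −0.79 and *Gad1*, *Gad2*, *Glra1* and *Glrb* lay between −0.26 and −0.19. With at least 10 UMIs *Gad1* reversed to 0.21 (−0.88 to 1.20). The nuclei with at least 5 UMIs of *Slc6a5* were also spread differently over subclusters in each library. Subcluster 1 held 41.2% of them in WT and 25.3% in HET, and subcluster 13 held 9.27% and 23.6%. The part of this difference in the ratios between libraries was not tested.

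**Figure D4:**
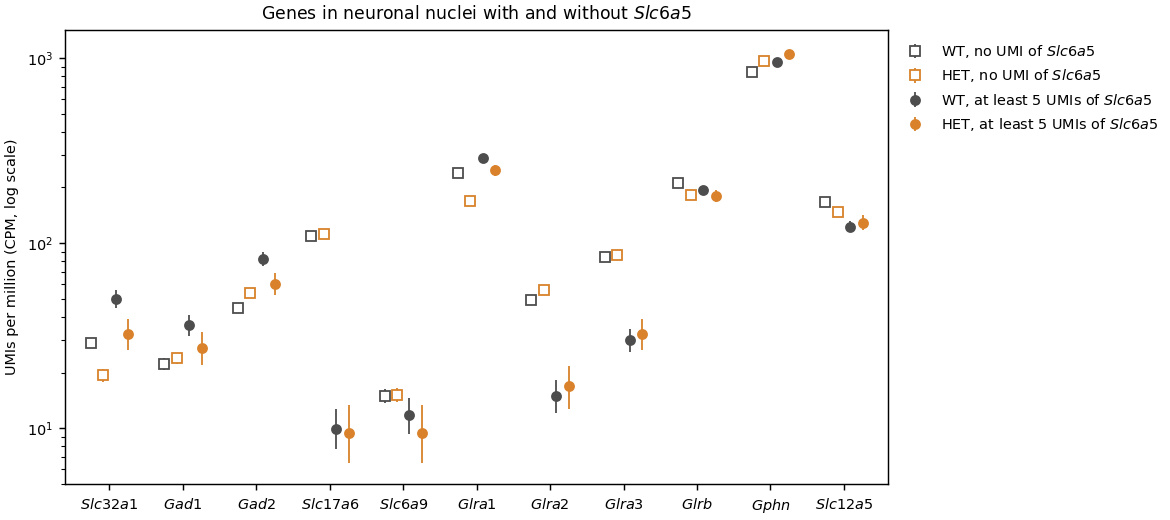
Level of inhibitory partner, receptor and chloride carrier genes (CPM, log axis) in neuronal nuclei without a UMI of *Slc6a5* (open squares) and with at least 5 (filled circles), by library, with exact 95% Poisson intervals. *Slc17a6* is lower in the nuclei rich in *Slc6a5* in both libraries, and *Gad2* is at 82.2 against 44.4 CPM in WT and, with overlapping intervals, at 60.2 against 53.5 CPM in HET.

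The wider glycine pathway was described by 27 listed genes, all with at least 20 UMIs over both libraries. Over all nuclei, 6 of the 27 were lower in HET by at least 1.5-fold and 1 was higher, against 15.3% and 10.9% of all genes, and their median log2 ratio was −0.09 against −0.10. Of the 5 genes of vesicle loading, receptor and scaffold, *Slc32a1* was lower (41.5 CPM in WT, 24.5 CPM in HET, −0.76) and *Glra4*, a further alpha subunit gene, was higher from a low level (3.83 and 6.44 CPM, 0.75, 269 and 426 UMIs). *Gphn* was at 853 and 994 CPM (0.22) and *Nlgn2*, an adhesion gene of inhibitory synapses, at 41.5 and 28.6 CPM (−0.54). The *Slc32a1* value stands beside its non-neuronal level given above.

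Among the 7 genes of other carriers of glycine or small neutral amino acids, 3 were lower past 1.5-fold. *Slc38a2*, a neutral amino acid transporter gene, had 262 CPM in WT and 147 CPM in HET (−0.84), *Slc6a20a* 19.7 and 11.6 CPM (−0.76) and *Slc38a5* 135 and 29 UMIs (−2.13, −2.76 to −1.54). *Slc7a10*, which exchanges small neutral amino acids, was at 472 CPM in astrocytes against 4.06 CPM in neurons, and its log2 ratio over all nuclei was 0.27. Of the 5 genes that make serine and glycine, *Shmt2* was lower (4.35 and 2.84 CPM, −0.62), and of the 4 of the glycine cleavage system, *Amt* was lower (12.4 and 7.30 CPM, −0.77). None of the 4 GABA genes and neither of the 2 chloride carrier genes passed 1.5-fold: *Gad1* was at −0.16, *Gad2* at −0.05 and *Slc12a5*, the gene of the chloride exporter KCC2, at −0.15. In neuronal clusters 5 of the 27 were lower and 1 higher, against 14.3% and 11.2% of all genes, among them *Slc38a2* with 235 and 112 CPM (−1.07).

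Genes with the most similar distribution to each member were found by Pearson's correlation of log2(CPM + 1) over the 33 subclusters with at least 50 nuclei, among 16347 genes, and are given with no p, since the points share 2 libraries and differ in depth. For *Slc6a5* they were *Pax2* (0.89), a transcription factor gene, *Gm14204* (0.87), whose annotated start is 44 bases from that of *Slc32a1* on the other strand, and *Gm20395* (0.83), which lies antisense within *Pax2*. For *Slc6a9* they were *9330188P03Rik* (0.90), *C730002L08Rik* (0.90) and *Ccdc24* (0.89), for *Glra2* *Celsr3* (0.92), *Gm28294* (0.90) and *Mapk11* (0.90), for *Glra3* *A330008L17Rik* (0.85), *Fbxo10* (0.83) and *Kcnc2* (0.82), and for *Glrb* *6530409C15Rik* (0.82), *Elavl3* (0.81) and *Amph* (0.79). The gene most like *Glra1* was *Gm12236* (0.98), before *Snhg11* (0.96). Among the members, *Glra1* correlated at 0.69 with *Glra2*, 0.60 with *Glra3*, 0.36 with *Slc6a5* and −0.76 with *Slc6a9*.

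In part these likenesses concern overlapping genes. *Gm12236* (ENSMUSG00000086460, chr11:55514846-55527715, plus strand) is annotated as antisense within the 3′ part of *Glra1*, and had 121 CPM in WT and 73.9 CPM in HET (log2 ratio −0.71, −0.76 to −0.66). *Ccdc24* lies opposite *Slc6a9* and had 11.6 and 10.9 CPM (−0.09), and *Gm17114*, also opposite *Slc6a9*, had 10.7 and 16.6 CPM (0.64). The study's methods name Cell Ranger with recommended settings, which for 3′ libraries count reads of the sense strand, but no strand is stated outright and none could be checked from the counts. The levels of *Glra1* and *Slc6a9* carry that reservation.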

How the data were processed

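The authors deposited raw counts, that is UMIs of each gene in each nucleus, from 10x Chromium 3′ libraries. The submitters' processing notes name Cell Ranger (version not given in the sources used here), mm10 and Seurat 4.1. The authors deposited a doublet score for each nucleus and had removed called doublets. Their filters on nuclei and genes, clusters, subclusters and reference labels were kept, and neither alignment nor clustering was repeated.

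UMIs were summed over nuclei and divided by all UMIs of the same nuclei. Clusters needed 30 and subclusters 50 nuclei in each library to be compared, and genes 20 UMIs over both. A gene was called lower or higher at 1.5-fold. A thinned share is what would be expected if 1000 UMIs were drawn from every nucleus. The interval code was tested on simulated data. The alternatives were other weightings and scalings, filters on depth, doublet score and labels, other thresholds and rank correlation.

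The 6 members, the 27 pathway genes and the *Hox* and marker lists were chosen with earlier results of these data known. All members are named, and of the other lists those past 1.5-fold or with a role a result turns on, with the 3 most similar genes per member. Some of these genes are not reported here. Positions come from GENCODE vM21 and promoters from RefSeq. The tools were scipy 1.17.1, numpy 2.4.6 and pandas 2.3.3 under Python 3.11.15, with figures by matplotlib 3.10.9.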

Additional observations from a re-analysis of the deposited data

Results flagged for a closer look

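*Glra2* and *Glra3* moved in opposite directions in different neuronal clusters. The log2 ratio of *Glra2*, HET over WT, was −0.66 (−1.26 to −0.01) in neuron.5 and 1.67 (0.82 to 2.63) in neuron.3, the latter from 13 WT and 89 HET UMIs. The log2 ratio of *Glra3* was −0.79 (−1.25 to −0.32) in neuron.4 and 1.12 (0.24 to 2.11) in neuron.3. The difference between clusters was not tested. Within neuron.3, the HET library had 100 and the WT library 14 nuclei of subcluster 27, where *Glra3* was at 34.5 CPM and *Glra2* at 29.2 CPM over both libraries. In its other subcluster, 13, *Glra3* was at −0.36 (−1.48 to 0.79) and *Glra2* at 1.83 (0.88 to 2.91).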

How the results depend on the processing

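With 1 library per genotype no replicate could be left out, and no value has an error beyond counting. No paired analysis was possible because each genotype has 1 library and no test was run. Over all nuclei, *Slc6a9* reversed to a log2 ratio of −0.029 with the same cluster weights in both libraries and −0.12 with the same subcluster weights. *Glra3* reversed to −0.079 as a mean over nuclei of CPM. In neuronal clusters *Glra2* changed sign to −0.12 (−0.30 to 0.06) in nuclei with at least 3 *Hox* UMIs, with an interval that spans 0. *Slc6a5*, *Glra1* and *Glrb* kept their direction under each alternative run. The other log2 ratios that moved by more than counting error over all nuclei were as follows. With the same subcluster weights in both libraries *Slc6a5* was −0.35, *Glra1* −0.36 and *Glra2* 0.10. With the same cluster weights in both libraries *Glra1* was −0.38 and *Glra3* 0.28. As a mean over nuclei of CPM, *Glra1* was −0.54. Without the subclusters mostly from 1 library, an alternative added after the counts had been seen, *Glra1* was −0.42 and *Glrb* −0.28. With the median of all genes set to 0, the values were *Slc6a5* −0.49, *Slc6a9* 0.26, *Glra1* −0.37, *Glra2* 0.29, *Glra3* 0.17 and *Glrb* −0.13, and in neuronal clusters *Slc6a5* −0.47, *Glra1* −0.34, *Glra2* 0.33, *Glra3* 0.23 and *Glrb* −0.15. The sets by *Hox* UMIs were also added after the counts had been seen. In neuronal nuclei without a *Hox* UMI, *Slc6a5* was −0.67, *Glra1* −0.39, *Glra2* 0.41, *Glra3* 0.27 and *Glrb* −0.32. With at least 1 *Hox* UMI, *Slc6a5* was −0.46, *Glra1* −0.37, *Glra2* 0.021 and *Glrb* −0.20, and with at least 3, *Slc6a5* was −0.41, *Slc6a9* −0.23, *Glra1* −0.39 and *Glrb* −0.18.

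Of the 6 genes, 0 were lower past 1.5-fold with the same cluster weights in both libraries or with the median set to 0. Of them, 0 were past 2-fold. Of the pathway list, 1 gene was lower and 0 were higher past 2-fold, and 2 were higher past 1.5-fold with the median set to 0. The share of neuronal nuclei with a UMI depends on depth: thinned to 2000 UMIs and unthinned it was 12.3% and 32.0% for *Slc6a5*, 3.14% and 12.7% for *Slc6a9*, 30.4% and 66.4% for *Glra1*, 8.89% and 24.7% for *Glra2*, 13.7% and 33.0% for *Glra3*, and 33.1% and 75.8% for *Glrb*. The log2 ratio of the share of neuronal nuclei rich in *Slc6a5* was −0.67 with at least 5 and −1.23 with at least 10 UMIs. By Spearman's correlation, of the 3 most similar genes 1 was found again for *Slc6a5* and for *Glrb* and 0 for *Slc6a9*, *Glra2* and *Glra3*. With subclusters of at least 100 nuclei, 1 was found again for each of *Slc6a9*, *Glra2* and *Glra3*. The most similar genes of every member but *Glra1* thus depend on the measure.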
